A study of Mus musculus with 5 samples.

Results

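The genes described here encode the enzymes and transporters with which mast cells make, store, take up and break down histamine and serotonin. The set was given by name, 9 symbols in all, and each matched a single row among the 25549 gene models of the deposited results table. They are Hdc, Tph1 and Ddc, which make the amines, Slc18a2, which loads them into granules, Slc6a4 and Slc22a3, which carry them across the cell membrane, and Maoa, Maob and Hnmt, which inactivate them. RNA was taken from untreated C57BL/6 mast cells that had been cultured from bone marrow over 6 to 8 weeks, with recombinant interleukin-3 at 50 ng/mL. The control group was Cpa3-Cre (n = 2 samples), in which Cre recombinase is expressed from the promoter of Cpa3, a mast cell carboxypeptidase gene. The other group was Cpa3-Cre;miR-9∆fl/∆fl (n = 3 samples), called the miR-9 line below. Both groups thus carried the Cre transgene, and the ages and sexes were stated to be matched. Values of the sex chromosomes that bear on this match are given beside Maoa and Maob. What recombination of the miR-9 allele does is not said in the labels. Nor do they tie the samples of a group to different mice or cultures, and the p-values therefore measure only how these samples spread, which may be technical. The gene model over the Mir9-1 hairpin, Gm25641, stood 22.6-fold higher in the miR-9 line in the authors' deposited table (adjusted p = 8.74e-18). Gm25641 is on the minus strand, and the mature arms of Mir9-1 are on the plus strand. Since the labels give no direction for the allele, this value does not check them.

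Histamine is made in a single step, the removal of the carboxyl group from histidine by histidine decarboxylase, the product of Hdc. Serotonin takes a pair of steps: tryptophan hydroxylase, encoded by Tph1 outside the brain, adds a hydroxyl group to tryptophan, and aromatic L-amino acid decarboxylase, the product of Ddc, removes the carboxyl group. The vesicular monoamine transporter VMAT2, the product of Slc18a2, then exchanges granule protons for amines, which are held in the granule by heparin and other acidic proteoglycans until the cell is triggered. Rodent mast cells are known for storing both histamine and serotonin, and histamine content and Hdc rise as these cells mature.

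The allele under study concerns miR-9, so its sequences are shown before the values, with the places where the 9 transcripts carry a match. Both mature arms are the same at the hairpins Mir9-1, Mir9-2 and Mir9-3 in RefSeq (GRCm38.p6), and capitals mark the seed, bases 2 to 8.
miR-9-5p: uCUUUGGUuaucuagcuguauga
miR-9-3p: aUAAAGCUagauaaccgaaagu
The longest annotated 3' UTR of each gene (GENCODE M21, GRCm38) was searched for the reverse complement of each seed, ACCAAAG for miR-9-5p and AGCTTTA for miR-9-3p. Of the 9 genes, 2 held a match. Slc18a2 had 1 match to the miR-9-5p seed, beginning at base 106 of a 3' UTR of 2096 bases, and Maoa had 1 match to the miR-9-3p seed, at base 1002 of 2443. The sites are printed with their flanks, capitals marking the 7 matched bases.
Slc18a2 (chr19:59294008-59294035, plus strand): catagagtaaaacaACCAAAGgtgatac
Maoa (chrX:16686363-16686390, plus strand): aagtttattatactAGCTTTAtccaaaa
Neither site was followed by an A. Hdc, Tph1, Ddc, Maob, Hnmt, Slc22a3 and Slc6a4 had no match in their longest 3' UTR, which ranged from 294 bases (Hdc) to 2785 bases (Tph1). Among 21020 genes with an annotated 3' UTR, 12.2 percent held a miR-9-5p match and 11.3 percent a miR-9-3p match. These shares are for each arm alone. The share with a match to either arm, which is what the count of 2 of the 9 calls for, was not computed. A match is a run of letters and was not tested as a binding site. The log2 fold changes that the authors' deposited table gives for the genes with a match were -0.06 (Slc18a2) and -0.69 (Maoa), and neither passed the test described next.

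The results table gives a log2 fold change, positive where the miR-9 line was higher, and an unadjusted p-value for each gene. P-values were adjusted by the Benjamini-Hochberg method over all 24071 genes that have one, and a gene was called at an adjusted p under 0.05. Of the 9 genes, 7 had a p-value, 5 with positive and 2 with negative log2 fold changes in the authors' deposited table. Ddc alone was called, and it was higher in the miR-9 line. The background was 0.411 percent of all genes called in either direction, 0.245 percent called higher and 0.166 percent called lower. At an unadjusted p under 0.05, 2 of the 7 passed (Ddc and Maob), against 7.92 percent of all genes. The median of the 7 was 0.19 in the authors' deposited table, and the median of all 24071 genes was -0.09. Values per sample were not used, because the names of those columns match no sample's labels. The error given beside each value below is therefore the one that follows if the deposited p-value is a two-sided Wald test of the deposited log2 fold change, called the implied standard error (SE). It was 0.40 for the median gene and reached at most 0.54.

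**Figure D1:**
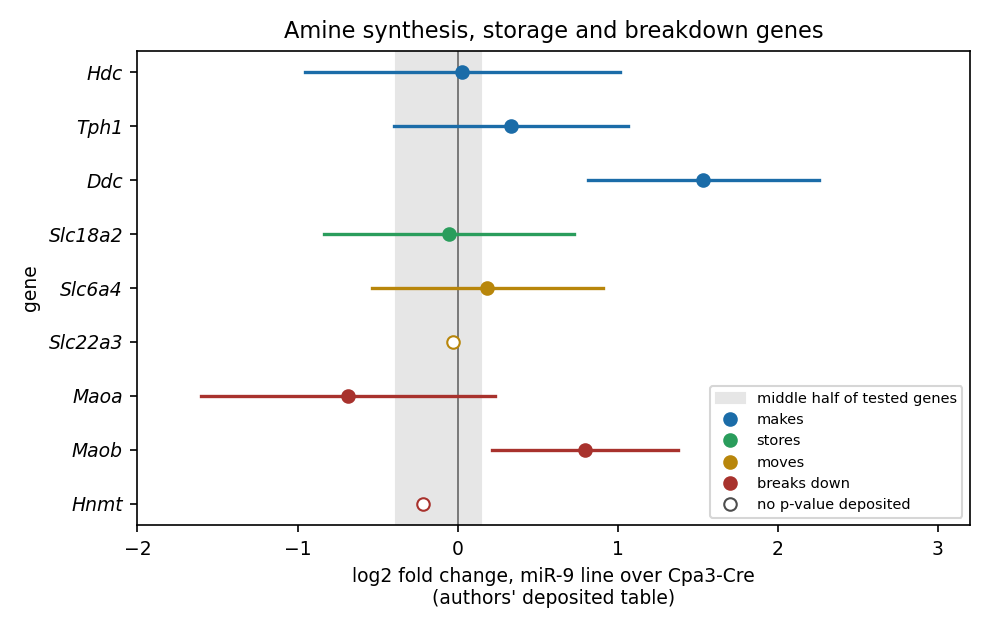
Log2 fold change of each of the 9 genes (horizontal axis, miR-9 line over Cpa3-Cre), coloured by role; bars are implied 95% intervals, open points have no deposited p-value, and the grey band, from -0.38 to 0.15, spans the quartiles of all tested genes. Only the bars of Ddc (0.81 to 2.26) and Maob (0.22 to 1.38) lie wholly above 0.

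Among the synthesis genes, Ddc was called higher, and the genes for the first step to each amine did not pass. The log2 fold change of Ddc was 1.54 by the authors' deposited table, meaning 2.90-fold more RNA in the miR-9 line (p = 3.18e-05, adjusted p = 0.0170). Its implied SE was 0.37, and the implied 95% interval ran from 0.81 to 2.26 on the log2 scale. By p-value it ranked 45th of the 24071 genes, and 99.8 percent of them had a lower log2 fold change by the authors' deposited table. Ddc also met the stricter unadjusted threshold of 0.0001 named in the design text, which 0.299 percent of all genes met. With the more conservative Benjamini-Yekutieli adjustment the call of Ddc was lost (adjusted p = 0.181). Its product acts on 5-hydroxytryptophan and on L-DOPA, so the same enzyme serves serotonin and dopamine synthesis.

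In the authors' deposited table Hdc, the sole source of histamine synthesis, stood at 0.03 (1.02-fold, p = 0.954, adjusted p = 0.996). The estimate was imprecise: its implied SE was 0.50, larger than that of 76.3 percent of tested genes, and its implied 95% interval ran from -0.95 to 1.01. The interval thus does not exclude a change of Hdc of about 2-fold in either direction. The largest implied SE of any gene was 0.54. If folds of variable genes were drawn towards 0, larger changes of Hdc are not excluded either. The authors' deposited table put Tph1, for the first enzyme of serotonin synthesis, at 0.33 (1.26-fold, p = 0.369, adjusted p = 0.897), with an implied 95% interval from -0.39 to 1.06. The intervals of Hdc and Ddc overlapped between 0.81 and 1.01, and those of Tph1 and Ddc between 0.81 and 1.06. Whether Ddc differed from Hdc or Tph1 was not tested, since the deposited values do not say how the errors of different genes are related.

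No storage or uptake gene passed. In the authors' deposited table Slc18a2 stood at -0.06 (p = 0.890, adjusted p = 0.988), with an implied 95% interval from -0.84 to 0.73, and its sign turned when the median of all genes was subtracted (0.037). The authors' deposited table put Slc6a4, for the plasma membrane serotonin transporter, at 0.19 (p = 0.611, adjusted p = 0.948), with an implied 95% interval from -0.53 to 0.91. Slc22a3, a low-affinity organic cation transporter that also carries histamine, was listed in the authors' deposited table at -0.03, with no p-value, and with the median of all genes subtracted it was at 0.066.

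The monoamine oxidases, outer mitochondrial membrane enzymes that oxidise serotonin and other amines, had values of opposite sign. In the authors' deposited table Maob stood at 0.80, a 1.74-fold higher level (p = 0.00718), but it did not pass the adjustment over all genes (adjusted p = 0.289). Its implied SE of 0.30 was the smallest of the 7 genes, and its implied 95% interval ran from 0.22 to 1.38. Its paralog Maoa was put by the authors' deposited table at -0.69, a 1.61-fold lower level (p = 0.145, adjusted p = 0.778). Its implied 95% interval, from -1.61 to 0.24, overlapped that of Maob between 0.22 and 0.24, and the difference between the paralogs was not tested. Maoa and Maob are neighbours on the X chromosome, on opposite strands, with 21464 bases between their gene models, and their exons in the table share 0 bases. Xist, the X-linked RNA that silences an X chromosome in female cells, was listed at 1.58 (p = 0.000994, adjusted p = 0.101) by the authors' deposited table. Of 46 tested gene models on the Y chromosome, 39 had negative values, against 59.8 percent of all genes, and 0 were called higher. Positive Y values in the authors' deposited table included 1.37 for Gm21857 (p = 0.00391) and 1.38 for Gm21860 (p = 0.00954), and neither passed. Against 0.166 percent of all genes, 4 of the 46 were called lower (-2.29 to -2.10 in the authors' deposited table). These 4, Gm21292, Srsy, Gm21788 and Gm20815, belong to families of near-identical copies, so their counts are uncertain. The single-copy Y genes Uty (-0.65, p = 0.187), Kdm5d (-0.55, p = 0.301), Ddx3y (-0.36, p = 0.487) and Eif2s3y (-0.20, p = 0.697) had negative values in the authors' deposited table and did not pass. Xist did not pass either, and whether the sexes of the samples were matched, as stated, was not tested with these values. The part of sex in the values of Maoa and Maob, which are X-linked, was not tested. Hnmt, which inactivates histamine by methylation, was listed in the authors' deposited table at -0.22, with no p-value.

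**Figure D2:**
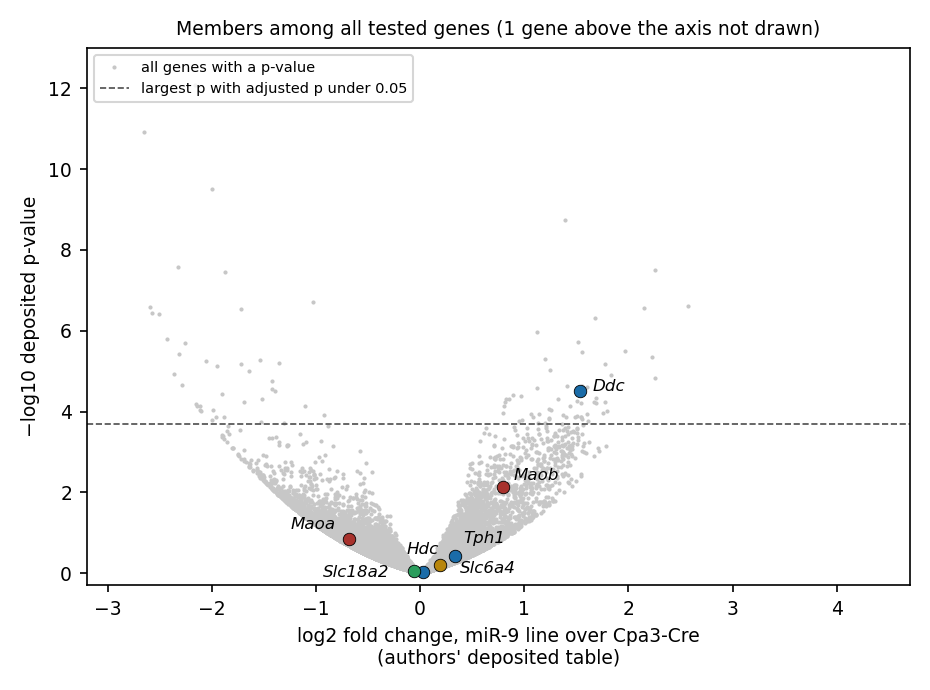
Log2 fold change (horizontal axis, miR-9 line over Cpa3-Cre) against −log10 of the deposited p-value (vertical axis) for the genes with a p-value (1 point lies above the drawn range), with the 7 tested genes of the set named and coloured by role as makes (blue), stores (green), moves (ochre) or breaks down (red). Ddc lies above the dashed line of the adjusted threshold; Maob is the next highest and lies below it, and Hdc, Slc18a2 and Slc6a4 lie at the bottom of the plot.

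Ddc was not the only gene model of its locus with a large positive value. The gene lies on chromosome 11 from 11814101 to 11898144 on the minus strand (GRCm38), with 22 exon segments in the table. The protein-coding neighbour on the downstream side, Fignl1, a AAA ATPase of DNA repair by recombination, is on the same strand, 5139 bases away. In the authors' deposited table Fignl1 stood at 1.39 (2.62-fold, p = 0.000257), which missed the threshold over all genes (adjusted p = 0.0566) and passed it when only protein-coding genes were adjusted (0.0418). The noncoding gene model 1700042O10Rik lies within Ddc on the opposite strand, from 11868123 to 11885321. Its value, from the authors' deposited table, was 1.79 (3.45-fold, p = 0.000727, adjusted p = 0.0860), so it did not pass. At an adjusted p under 0.10 all 3 gene models (Fignl1, Ddc and 1700042O10Rik) passed, where 0.968 percent of all genes did. They lie within a stretch of 110.7 kb.

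The genes flanking that stretch did not pass. Ikzf1, the lymphoid and myeloid transcription factor gene Ikaros on the far side of Fignl1, had a value of 0.15 (p = 0.547) in the authors' deposited table. For Grb10, an imprinted gene for an adaptor of insulin signalling that lies 32364 bases beyond the upstream end of Ddc, the authors' deposited table gave 0.58 (p = 0.263, adjusted p = 0.851). Of the 8 other gene models with a p-value within 250 kb of Ddc, 2 had an unadjusted p under 0.05 (Fignl1 and 1700042O10Rik), against 7.92 percent of all genes. The exons of 1700042O10Rik and of Fignl1 share 0 bases with those of Ddc. The libraries held total RNA, in which introns are read, and the library reads were strand-specific, but the sources used here do not give whether strand entered the counting. Reads of unspliced Ddc RNA and of 1700042O10Rik therefore cannot be told apart. Fignl1 is also a gene of dividing cells. The mitotic kinase gene Cdk1 (1.55, adjusted p = 0.0245) and the proliferation marker gene Mki67 (1.51, adjusted p = 0.0560) had values as high in the authors' deposited table, and their part in the locus was not tested.

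**Figure D3:**
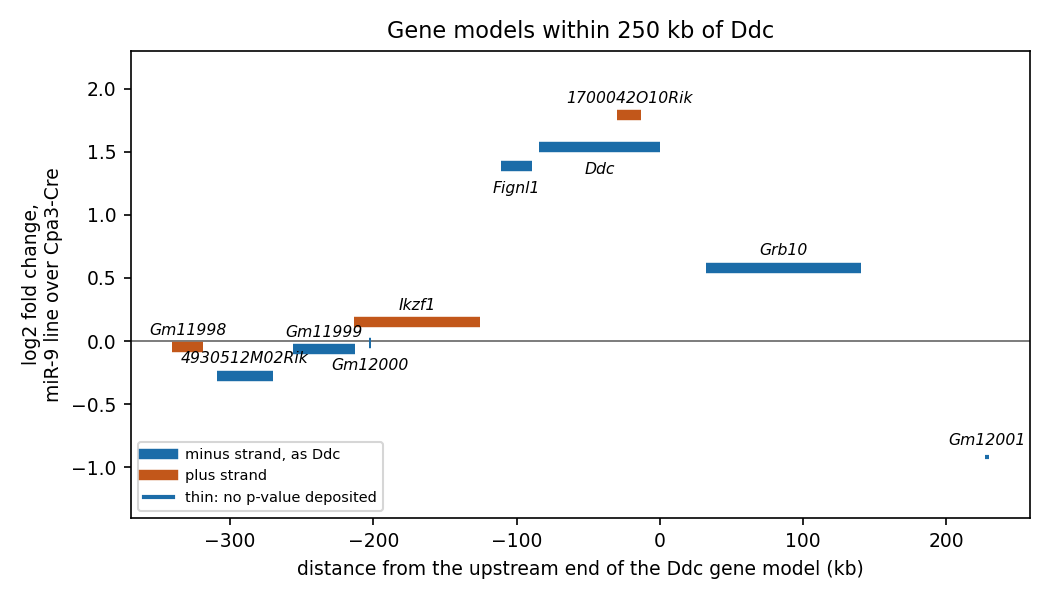
Gene models within 250 kb of Ddc, drawn at their distance in kb from the upstream end of Ddc (horizontal axis) and at their log2 fold change, miR-9 line over Cpa3-Cre (vertical axis); blue bars are on the strand of Ddc, orange bars on the other, and the thin bar has no p-value. Fignl1, Ddc and 1700042O10Rik stand between 1.39 and 1.79, Grb10 at 0.58, and every other gene model at 0.15 or lower.

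Ddc is known to use alternative first exons in neural and in other tissues, and RefSeq (GRCm38.p6) gives windows for a pair of start sites, 7736 bases apart. The table holds 1 value for the whole gene, so which start gave the additional RNA was not analysed here. The 250 bases before each start are shown, since Ddc was the only gene of the set that was called, with CG pairs in capitals.
Ddc, outer start (chr11:11898145-11898394, minus strand): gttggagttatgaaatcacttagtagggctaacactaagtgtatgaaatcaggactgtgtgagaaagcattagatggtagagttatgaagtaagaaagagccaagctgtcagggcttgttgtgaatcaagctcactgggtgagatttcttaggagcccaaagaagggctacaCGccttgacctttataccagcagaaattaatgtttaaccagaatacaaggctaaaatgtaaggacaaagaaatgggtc
Ddc, inner start (chr11:11890409-11890658, minus strand): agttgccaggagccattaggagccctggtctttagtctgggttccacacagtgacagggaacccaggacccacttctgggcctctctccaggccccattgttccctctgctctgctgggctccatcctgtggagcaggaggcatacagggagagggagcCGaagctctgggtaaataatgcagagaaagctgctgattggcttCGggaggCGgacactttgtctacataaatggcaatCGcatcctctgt
They held 1 CG pair before the outer start and 4 before the inner start, and the median over all 32851 RefSeq windows was 6. In the 300 bases from 250 before to 50 after each start, neither Ddc window held GATAA on either strand, which 25.4 percent of all windows hold. GATAA is a form of the site of the mast cell factors GATA1 and GATA2. The form GATAG was not searched, so a window without GATAA can still hold a site. Neither held TATAAA on the sense strand (8.32 percent of all windows) or CACGTG or CATGTG on either strand, the E-boxes that MITF binds (20.4 percent). Of the 8 genes of the set with a window, 2 held GATAA, Slc18a2 and Maoa. The 300-base window of Fignl1 held 34 CG pairs, more than 92.3 percent of all windows of that length. These matches describe the letters of the windows only.

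The pathways around the amines were read from 12 lists, 123 gene models in all, of which 110 had a p-value. Of these, 1 was called higher and 1 lower, where 0.245 percent and 0.166 percent of all genes were. The counts leave out Azin2, a list gene that stands under its older symbol Adc. It was also called lower and is given below with the polyamine genes. An unadjusted p under 0.05 was reached by 8 of the 110, a share close to the 7.92 percent of all genes. Of all genes with a p-value, 59.8 percent had negative values, and the sign counts of the lists are to be read against that share. The lower gene of the 110 was Sult1a1, a cytosolic sulfotransferase of phenols. The authors' deposited table listed Sult1a1 at -1.96, or 3.90-fold lower in the miR-9 line (p = 0.000135, adjusted p = 0.0386). It belongs to the list of other amine-degrading enzymes, in which 6 of 14 values were positive, 8 negative, and 13 not called. The amine oxidase genes Aoc1, for the diamine oxidase that degrades extracellular histamine (-0.82, p = 0.0575), and Aoc3 (-0.73, p = 0.163) in the authors' deposited table did not pass. Aldh1a1, an aldehyde dehydrogenase gene (-0.90, p = 0.0885 in the authors' deposited table), did not pass either.

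The called higher gene was Srm, for spermidine synthase, which the authors' deposited table lists at 0.80 (1.75-fold, p = 7.30e-05, adjusted p = 0.0268). Polyamines are made, like histamine, by way of an amino acid decarboxylase. Of the 10 polyamine genes counted, 7 had positive values, 1 was called, and the median was 0.21 in the authors' deposited table. Azin2, another gene of that list, stands under its older symbol Adc and was left out of these counts. Its value in the authors' deposited table was -1.42 (p = 2.75e-05, adjusted p = 0.0154), so it was called lower. Odc1, for ornithine decarboxylase (0.54, p = 0.0253, adjusted p = 0.504), and Azin1, which relieves its inhibition (0.58, p = 0.0129, adjusted p = 0.389), did not pass with the values of the authors' deposited table.

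Cofactor genes gave no call. Tph1 needs tetrahydrobiopterin, and 6 of the 8 genes for its synthesis and recycling had positive values, with a median of 0.28 in the authors' deposited table. Qdpr, which recycles the cofactor (0.47, p = 0.0257), and Pcbd1, a dehydratase of the same cycle (0.91, p = 0.0632), did not pass with the values of the authors' deposited table. Gch1, for the first enzyme of the route, stood at -0.04 in the authors' deposited table. Hdc and Ddc use pyridoxal phosphate, whose 4 supply genes lay between -0.16 (Prosc) and 0.31 (Pdxp) in the authors' deposited table.

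Precursor uptake and competing routes were also without a call. The 9 tested genes of tryptophan and histidine uptake had a median of -0.23, led by Slc7a6 (-0.51, p = 0.0986), Slc7a5 (0.54, p = 0.127) and Slc15a4 (-0.23, p = 0.356) in the authors' deposited table. In the kynurenine route, which consumes tryptophan, 9 of 11 values were negative, against 59.8 percent of all genes, with a median of -0.36 in the authors' deposited table. Its smallest p-values belonged to Ido2 (-0.75, p = 0.159), Ccbl1 (-0.42, p = 0.201) and Ccbl2 (-0.45, p = 0.235) in the authors' deposited table. The catecholamine genes Th (-0.90, p = 0.0542), Pnmt (-0.40, p = 0.403) and Dbh (-0.37, p = 0.425) belong to the other route through Ddc, and these 3 genes had negative values in the authors' deposited table.

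Granule genes gave no call. Of 13 tested subunits and partners of the V-ATPase, the proton pump that powers Slc18a2, 9 were positive, 0 had an unadjusted p under 0.05, and the range was -0.13 to 0.33 in the authors' deposited table. Atp6v0a2 (0.31, p = 0.131), Atp6v1g1 (0.33, p = 0.327) and Atp6v0e (0.25, p = 0.378) had the smallest p-values in the authors' deposited table. In the granule matrix list, Hs6st1 (0.50, p = 0.0410) and Hs3st1 (-0.72, p = 0.0771), both heparan sulfate sulfotransferase genes, and the chain elongation gene Ext1 (-0.46, p = 0.164) led 10 tested genes with a median of -0.04 in the authors' deposited table; that median became 0.056 when the median of all genes was subtracted. Srgn, for serglycin, the core protein that carries granule heparin, had a value of 0.35 (p = 0.183) in the authors' deposited table.

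Receptors for the amines gave 12 negative values of 17, against 59.8 percent of all genes, and no call, with a median of -0.45 in the authors' deposited table. Htr4 (2.01-fold lower, p = 0.0382, adjusted p = 0.580), Htr1a (-0.82, p = 0.0678) and the histamine receptor gene Hrh2 (0.48, p = 0.124) had the smallest p-values in the authors' deposited table. Of the histamine receptors, Hrh4, found on mast cells themselves, stood at 0.42 (p = 0.280), Hrh1 at 0.06 (p = 0.911) and Hrh3 at -0.54 (p = 0.247) in the authors' deposited table. The 5 other amine transporters tested were not called, with a median of -0.26 in the authors' deposited table; Slc6a2 (-0.41, p = 0.374), Slc47a1 (-0.37, p = 0.414) and Slc22a2 (-0.26, p = 0.565) came first by p-value. The list of factors known to bind or raise Hdc and Tph1 gave no call, with Gata2 at -0.06 (p = 0.829), Mitf at 0.05 (p = 0.813) and Gata1 at 0.06 (p = 0.849) in the authors' deposited table. By smallest p-value this list was led by Ikzf1, given above, and Tal1 (-0.17, p = 0.613) in the authors' deposited table.

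**Figure D4:**
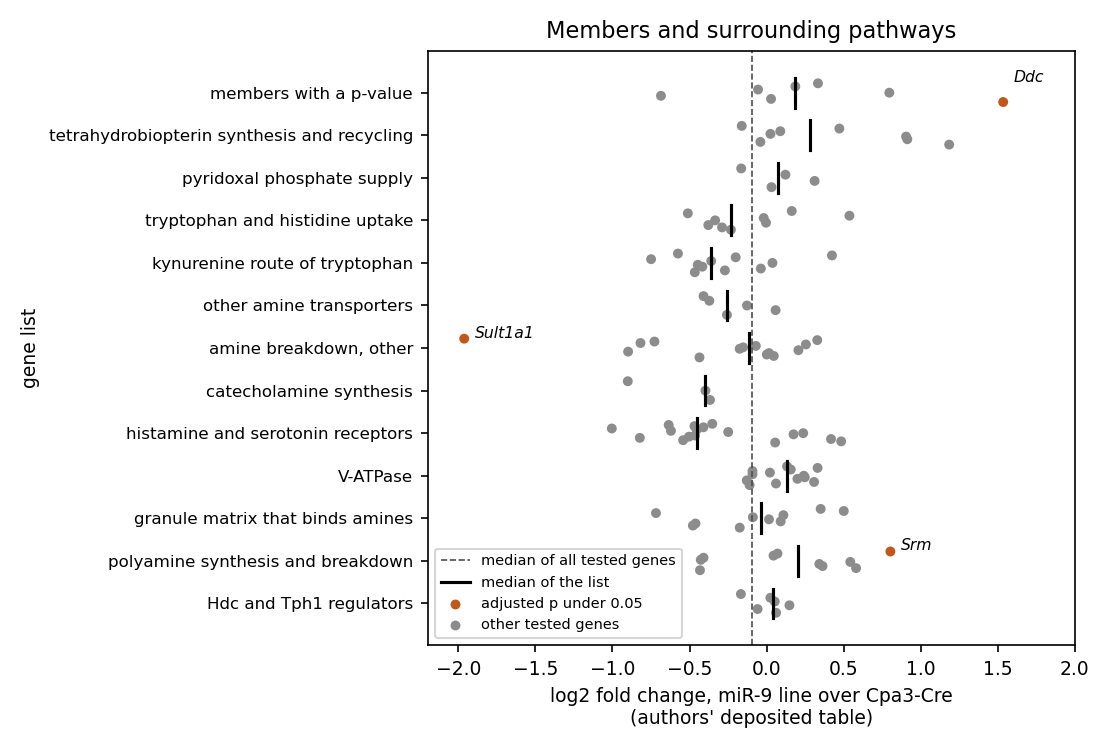
Log2 fold change (horizontal axis, miR-9 line over Cpa3-Cre) of every tested gene in the set and in 12 surrounding lists (rows), with a black tick at each list's median and a dashed line at the median of all tested genes (-0.09). The 3 orange points are the called genes drawn, Ddc and Srm to the right and Sult1a1 to the left. The called gene Azin2 (symbol Adc) was left out of its list and is not drawn.

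Amines can also come from other cells in a marrow culture, so their markers were read. All 12 mast cell markers had a p-value; Tpsb2 was called (3.03-fold higher, adjusted p = 0.0149), and Cma1 (0.97, adjusted p = 0.442), Cpa3 (0.42), Fcer1a (0.09) and Kit (-0.04) were not in the authors' deposited table. Basophils also make histamine: of 4 basophil markers, Mcpt8 and Prss34 had no p-value, and Cd200r3 (0.16) and Itga2 (-0.36) were not called in the authors' deposited table. Platelets and their precursors store serotonin, and 7 of 7 of their markers were tested and not called, with a range of -0.59 to 0.14 in the authors' deposited table. P-values were empty for 8 of 8 neutrophil, 7 of 7 monocyte and macrophage and 4 of 5 eosinophil markers in the table, against 5.78 percent of all rows. The same held for 2 of the 9 genes of the set (Hnmt and Slc22a3) and for 5 of 18 V-ATPase genes. An empty p-value does not by itself show that a gene was absent, and its reason was not analysed here. Of 5 lymphocyte and 4 stromal markers, all with a p-value, 0 were called and 1 (stromal) had an unadjusted p under 0.05, with medians of -0.53 and -0.45 in the authors' deposited table. Levels of these markers were not analysed here, and their part in the values above was not tested. In bulk RNA, fewer cells of a type and less RNA per cell cannot be told apart.

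Local context was also read for the other genes of the set, by the nearest protein-coding gene with a p-value on each side. Of the 18 neighbours so chosen, 0 were called at an adjusted p under 0.05 (0.411 percent of all genes), and 3 (Fignl1, Blmh and Maob) had an unadjusted p under 0.05 (7.92 percent of all genes). For Hdc on chromosome 2 (126593667 to 126619299, minus strand) these were Slc27a2 (-0.44, p = 0.370) and Gabpb1 (0.34, p = 0.113) in the authors' deposited table. Tph1 on chromosome 7 (46647130 to 46672537, minus strand), itself at 0.33, lay between Sergef (0.34, p = 0.247) and Saal1 (0.18, p = 0.570) in the authors' deposited table. Slc18a2 on chromosome 19 (59260878 to 59296012, plus strand) ended 72 bases from the convergent gene Pdzd8 (0.00, p = 0.982 in the authors' deposited table), with which it shared no exonic base. On its other side was Kcnk18 (-0.43, p = 0.309 in the authors' deposited table). Slc6a4 on chromosome 11 (76998603 to 77032340, plus strand) lay between Blmh, a peptidase gene (0.67, p = 0.0188, adjusted p = 0.453), and Ccdc55 (-0.12, p = 0.562) in the authors' deposited table. Maoa (16619698 to 16687818, plus strand) had Cask (0.03, p = 0.946) as its other neighbour, at 2768331 bases, and Maob (16709282 to 16817366, minus strand) had Ndp (-0.96, p = 0.0740) in the authors' deposited table. Slc22a3 on chromosome 17 (12419972 to 12507704, minus strand) lay between Plg (-0.59, p = 0.210) and its paralog Slc22a2 in the authors' deposited table. Hnmt on chromosome 2 (24002910 to 24049394, minus strand) lay between Spopl (-0.05, p = 0.778) and Tbpl2 (-0.64, p = 0.0810) in the authors' deposited table. Among the 9 genes, Ddc thus had the neighbour with the smallest p-value, Fignl1.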

How the data were processed

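The submitters' processing notes name the tools STAR, HTSeq, Cuffdiff, DESeq and DESeq2 and the builds mm10 and GRCm38, without role or version. For each gene model the deposited table holds, per its headers, the authors' log2 fold change, p-value and summed exon length in bases. Not given in the sources used here: the model formula and any shrinkage. Per the labels, about 70000000 paired reads of 50 bases were aimed at per sample, from heparinase-treated, rRNA-depleted RNA; the depth behind each value was not analysed here. The 5 columns of values per library match no sample's labels and were not used, so no count test was run. Adjustment used statsmodels 0.14.6 (Python 3.11.15, pandas 2.3.3, scipy 1.17.1), tested on simulated p-values. Implied SE is the absolute log2 fold change over the normal quantile of the p-value; its sharp upper limit is what a prior that draws folds towards 0 would give, so folds of variable genes may be too small. Gene class came from GENCODE M21 (23720 rows by symbol) or RefSeq (1188); 641 rows were not matched. UTRs came from M21, miRNA and start-site sequences from RefSeq, and protein sequences were not used here. The members and lists were chosen with earlier results of these data known. Named genes were all 9 members, their neighbours, 5 mast cell markers, and in each list the called genes or otherwise the 3 smallest p-values; others named, among them 1700042O10Rik, Xist, the Y-linked genes, Cdk1 and Mki67, were chosen after their values were seen; some genes that the rule names are not reported here. Alternatives were other adjustments, thresholds and centring.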

Additional observations from a re-analysis of the deposited data

How the results depend on the processing

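Ddc was the 1 gene of the set called over all genes, over protein-coding genes alone (adjusted p = 0.0122), at an unadjusted p under 0.0001 and at an adjusted p under 0.10. With the more conservative Benjamini-Yekutieli adjustment 0 of the 7 were called (Ddc 0.181), 0 of the 110 pathway genes, and 24 genes of the whole table. At an unadjusted p under 0.0001, 1 of these 110 passed (Srm) and not 2. Azin2 (symbol Adc), left out of the 110, also passed that threshold (p = 2.75e-05 in the authors' deposited table). Subtracting the median of all genes turned the sign of Slc18a2 (0.037), Slc22a3 (0.066) and the granule matrix median (0.056); subtracting the median of protein-coding genes gave 0.036 for Slc18a2 and 0.066 for Slc22a3. The other 7 genes and 11 list medians kept their sign. The pathway alternatives other than centring, and the search of any annotated 3' UTR, which again gave 2 genes with a match, were chosen after seeing the data. No paired analysis was possible because the values per library could not be tied to samples. For the same reason the planned TMM, DESeq2, filter and leave-one-out fits were not run, and how far a single sample decides the Ddc value was not tested.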

Other observations

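Relatives of the 9 proteins by family, a list chosen after the data were seen, gave no call. Of 12 with a p-value, 10 were negative (59.8 percent of all genes were), 0 were called at an adjusted p under 0.05 and 2 had an unadjusted p under 0.05 (7.92 percent of all genes), with a median of -0.37 in the authors' deposited table. The pyridoxal phosphate decarboxylases related to Hdc and Ddc stood at -0.94 (Gad1, p = 0.0777), -0.91 (Gadl1, p = 0.0781), -0.51 (Gad2, p = 0.184) and -0.22 (Csad, p = 0.434) in the authors' deposited table. Il4i1, an amino acid oxidase gene of immune cells, stood at -0.87 (p = 0.00264, adjusted p = 0.171) in the authors' deposited table. Tph2, the brain paralog of Tph1, stood at -0.16 (p = 0.669) in the authors' deposited table.

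Within 250 kb of Slc18a2, the homeobox gene Emx2 stood at 1.72 (p = 0.000949, adjusted p = 0.0989) and its antisense transcript Emx2os at 0.92 (p = 0.00386, adjusted p = 0.203) in the authors' deposited table. Within 250 kb of Slc22a3, Airn, the noncoding RNA of the imprinted Igf2r cluster, stood at -1.09 (p = 0.0350, adjusted p = 0.560) in the authors' deposited table.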
